A study of Mus musculus with 4 samples.

Results

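The genes described are 10 transcription factor and transporter genes of the pallial excitatory neuron lineage, *Emx1*, *Emx2*, *Neurog2*, *Eomes*, *Neurod1*, *Neurod2*, *Neurod6*, *Tbr1*, *Slc17a6* and *Slc17a7*. They were chosen by gene name, out of 56883 genes in the deposited table, and all 10 passed the filter on low counts (a mean over the libraries of 10 or more) that left 14323 genes to test. Cells carrying tdTomato were taken by FACS from the basal telencephalon of mouse embryos at E14.5 and their RNA was sequenced, in 2 libraries of *Sst-Cre/tdTomato* embryos, the control, and 2 of *Sst-Cre/tdTomato/Dnmt1 loxP2* embryos, the *Dnmt1* KO. All groups carried the *Sst-Cre* driver, which is active in cells that express somatostatin, and the Cre-dependent tdTomato reporter used for sorting, and the *Dnmt1* KO embryos carried in addition *Dnmt1* alleles with loxP-flanked exons. Each library held cells of several pooled embryos, RNA came from 50000 cells pooled per genotype, and the labels call the cells Sst interneurons. DNMT1 is the enzyme that copies DNA methylation onto new DNA strands. Whether the 2 libraries of a genotype came from separate sets of embryos is not stated in the labels, so the spread between them may be technical. The limma standard errors and p-values rest on this spread pooled over genes of similar expression, not on the libraries of a single gene alone.

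Excitatory neurons of the cerebral cortex arise in the pallium, the dorsal part of the telencephalon. Radial glia there express *Emx1*, *Emx2* and the proneural factor *Neurog2*, intermediate progenitors express *Eomes*, and the neurons that follow switch on *Neurod* factors, *Tbr1* and the vesicular transporters that load glutamate into synaptic vesicles. Cortical interneurons arise in the basal telencephalon, use GABA and follow a different set of factors, among them the *Dlx* genes. *Lhx6* and *Nkx2-1* belong to the lineage of the medial ganglionic eminence, a part of the basal telencephalon that gives rise to somatostatin interneurons.

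Recovered reads per library ranged from 6970247 to 8376711, and the chi-square per degree of freedom was 2.71 and 2.31 between replicates of a genotype and 9.39 and 9.64 between genotypes. The normalized count of *Dnmt1*, the targeted gene, was 2238 and 2341 in the control and 2164 and 2210 in the *Dnmt1* KO libraries. These counts cover the entire gene and cannot show whether the loxP-flanked exons are missing, so they do not check the deletion. Of the 11 interneuron markers listed, all were detected in every library, and *Sst* itself had 5580 and 5963 normalized counts in the control and 8303 and 7825 in the *Dnmt1* KO libraries.

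The promoter windows of *Neurod1*, *Neurod2* and *Slc17a6* are shown because they share a short motif, CATATG, that is rare among promoters. Several motifs were searched in these same windows and this motif was picked from them, so its frequency is a description and not a test. Each is the 250 bases before an annotated start from RefSeq on GRCm38.p6, written 5′ to 3′ on the strand of the gene, and capitals mark every E-box (CANNTG), the element that basic helix-loop-helix factors such as the NEUROG and NEUROD proteins bind. The *Neurod1* window is chr2:79456637-79456886 on the minus strand, the *Neurod2* window is chr11:98329646-98329895 on the minus strand, and the *Slc17a6* window, the second of its windows, is chr7:51624387-51624636 on the plus strand.
Neurod1: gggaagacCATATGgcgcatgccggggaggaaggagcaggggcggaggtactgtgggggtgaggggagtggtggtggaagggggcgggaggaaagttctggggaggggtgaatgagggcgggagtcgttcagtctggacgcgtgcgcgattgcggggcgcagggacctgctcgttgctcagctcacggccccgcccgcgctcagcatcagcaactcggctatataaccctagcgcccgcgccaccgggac
Neurod2: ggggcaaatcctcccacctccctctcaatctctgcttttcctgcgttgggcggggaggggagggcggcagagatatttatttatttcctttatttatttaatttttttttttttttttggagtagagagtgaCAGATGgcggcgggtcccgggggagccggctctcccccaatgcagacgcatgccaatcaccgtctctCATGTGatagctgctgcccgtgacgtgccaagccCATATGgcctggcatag
Slc17a6: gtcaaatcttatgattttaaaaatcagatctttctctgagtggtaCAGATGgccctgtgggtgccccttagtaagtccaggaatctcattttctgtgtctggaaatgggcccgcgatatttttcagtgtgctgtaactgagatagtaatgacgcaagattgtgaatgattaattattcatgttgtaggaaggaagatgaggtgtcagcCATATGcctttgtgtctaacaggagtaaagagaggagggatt

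The 10 genes matched 11 such windows. CATATG was present in 3 of 11, against 3.46% of all 32851 windows of the same length. CANNTG as a whole, which includes CATATG, was in 8 of 11 windows against 66.2% of all, and CAGATG, another form of the same element, in 2 of 11 against 14.4%. No E-box was found in the windows of *Emx2*, *Eomes* and *Neurog2*. The form CAGCTG was in none (13.0% of all), and neither was the T-box motif TCACACC (3.33% of all), the kind of element bound by EOMES and TBR1. TAATTA, a homeodomain core, was in the windows of *Tbr1* and *Slc17a6* (2 of 11, against 4.84% of all). Both strands were searched, and a match describes these letters only. The windows held 3 to 30 CpG dinucleotides, where the median of all windows was 6 and the upper quartile began at 16. *Emx1* with 30, *Emx2* with 24 and *Neurod1* with 22 lay above that quartile, and *Neurod6* had 3. DNA methylation at these windows was not analysed here.

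All 10 genes had lower normalized counts in both *Dnmt1* KO libraries than in both control libraries. Summed over the genes, the normalized count was 3253 and 3283 in the control and 1744 and 1600 in the *Dnmt1* KO libraries, 51.2% of the control mean. With limma and Benjamini-Hochberg adjustment over all 14323 genes, 8 of the 10 fell and 0 rose, where 8.99% of all genes tested were called lower and 8.30% higher at an adjusted p below 0.05. Complete separation of the genotypes in the lower direction was found in 29.0% of all genes tested. The median log2 fold change of the 10 genes was -1.13, against -0.0033 over all genes, and 4.04% of all genes had a log2 fold change of -1 or less. All 10 fold changes were negative, so no member could be called higher at any threshold. On the recovered reads, edgeR, DESeq2 and limma-voom each called 8 members lower and 0 higher. Without the trend of variance over expression, limma called 0 of the 10 lower and 0 of all genes in either direction, although 8 members had an unadjusted p below 0.05. In bulk RNA of sorted cells, fewer cells of a type and less RNA per cell cannot be told apart.

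**Figure D1:**
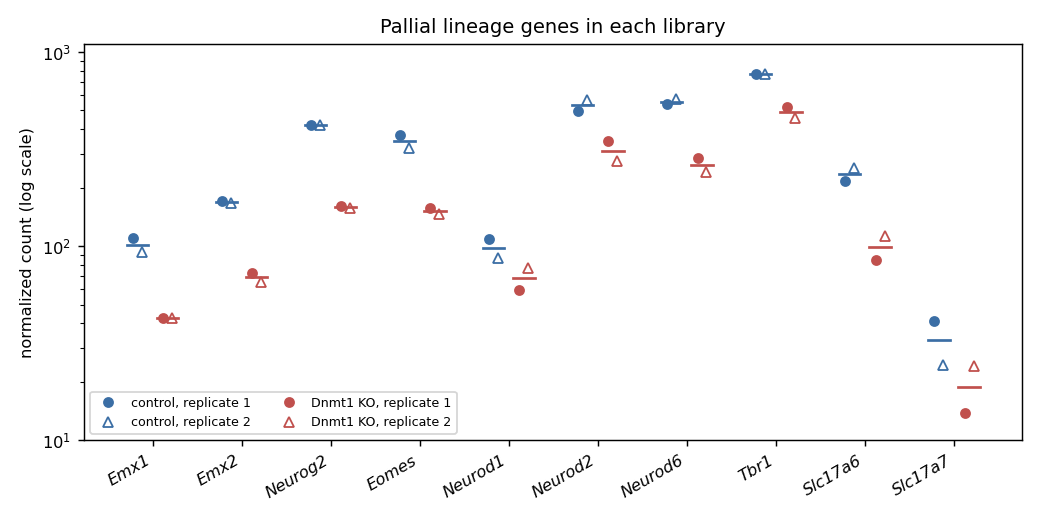
Normalized count (log axis) of each of the 10 genes in each library. Circles are replicate 1, triangles replicate 2 and bars the mean of 2 libraries, with control in blue and *Dnmt1* KO in red. Both red symbols lie below both blue ones for every gene, with the narrowest gap for *Slc17a7* (24.0 against 24.5).

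The regional factors of pallial progenitors fell to well below the control level. *Emx1*, a homeobox gene of the dorsal telencephalon (chromosome 6, 85164420 to 85181444, plus strand, GRCm39), had normalized counts of 110.1 and 92.9 in the control and 42.4 and 42.6 in the *Dnmt1* KO libraries. Its *Dnmt1* KO mean was 41.9% of the control mean, a log2 fold change of -1.23 (SE 0.22, limma adjusted p = 0.0011). *Emx2*, its paralogue on chromosome 19 (59446804 to 59453789, plus strand), had 172 and 167 in the control and 73.0 and 65.6 in the *Dnmt1* KO libraries. The genotypes were apart by far more than the replicates of either gene, with a log2 fold change of -1.28 (SE 0.17, limma adjusted p = 9.19e-05) for *Emx2*. The difference between the paralogues, -0.05 (SE 0.28) on the log2 scale, was within its error.

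*Neurog2*, the basic helix-loop-helix gene that drives neuronal commitment in pallial progenitors (chromosome 3, 127426448 to 127429280, plus strand), had the most negative log2 fold change of the 10 over the 4 libraries. However, it lay within 2 standard errors of *Emx2*, *Slc17a6*, *Emx1*, *Eomes* and the imprecise *Slc17a7* (difference -0.63, SE 0.41). Without *Dnmt1* KO replicate 2, *Slc17a6* was lower (-1.45 against -1.38). *Neurog2* had 421 and 419.6 normalized counts in the control and 161 and 157 in the *Dnmt1* KO libraries. The replicates of each genotype nearly coincided, and the *Dnmt1* KO mean was 37.9% of the control mean (log2 fold change -1.40, SE 0.11, limma adjusted p = 7.16e-07). A log2 fold change as low or lower was found in 1.56% of all genes tested. Leaving out any library kept the value between -1.41 and -1.38.

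*Eomes*, the T-box gene of intermediate progenitors (chromosome 9, 118307280 to 118315200, plus strand), had 375 and 322 normalized counts in the control and 158 and 146 in the *Dnmt1* KO libraries. The genotypes did not overlap, and the log2 fold change was -1.19 (SE 0.13, limma adjusted p = 1.16e-05).

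Of the *Neurod* factors of neuronal differentiation, *Neurod2* and *Neurod6* fell and *Neurod1* did not pass the test. *Neurod1* (chromosome 2, 79282865 to 79287294, minus strand), which acts after *Neurog2* in the same cascade, had 109 and 86.8 in the control and 59.2 and 77.6 in the *Dnmt1* KO libraries. The gap between the nearest libraries was narrower than the spread within either genotype, and the log2 fold change of -0.52 (SE 0.21) did not pass the threshold (limma adjusted p = 0.114). Without *Dnmt1* KO replicate 2 it was -0.71 with an adjusted p of 0.0423, and without *Dnmt1* KO replicate 1 or a control library it did not pass.

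*Neurod2* (chromosome 11, 98216241 to 98220480, minus strand), a factor of postmitotic excitatory neurons, had 498 and 568 in the control and 347 and 274 in the *Dnmt1* KO libraries. Its log2 fold change was -0.78 (SE 0.12, limma adjusted p = 0.000253). *Neurod6* (chromosome 6, 55654807 to 55658326, minus strand), a related factor that marks pallial excitatory neurons, had 537 and 574 in the control and 285 and 240.4 in the *Dnmt1* KO libraries. Here the *Dnmt1* KO mean was 47.3% of the control mean (log2 fold change -1.08, SE 0.11, limma adjusted p = 5.63e-06).

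*Tbr1*, the T-box gene of early-born and deep-layer neurons (chromosome 2, 61633274 to 61644458, plus strand), had the highest normalized count of the 10 genes in every library, 774 and 775 in the control and 519.8 and 459 in the *Dnmt1* KO libraries. It also had the smallest change of the 8 called genes, with a *Dnmt1* KO mean of 63.2% of the control mean. However, the difference from *Neurod2* was within its error (*Neurod2* minus *Tbr1* -0.12, SE 0.14). Its log2 fold change was -0.66 (SE 0.086, limma adjusted p = 7.51e-05), and 8.92% of all genes tested were as low or lower.

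Both vesicular glutamate transporters were measured, at very different depth. *Slc17a6*, which encodes VGLUT2 (chromosome 7, 51271434 to 51320867, plus strand), had 216 and 254 normalized counts in the control and 84.8 and 113 in the *Dnmt1* KO libraries. The log2 fold change was -1.25 (SE 0.17, limma adjusted p = 9.37e-05). *Slc17a7*, which encodes VGLUT1 (chromosome 7, 44813305 to 44825644, plus strand) and is switched on later in cortical neurons, had only 46 and 24 reads in the control and 14 and 22 in the *Dnmt1* KO libraries. These were normalized counts of 41.2 and 24.5 against 13.8 and 24.0, and the nearest libraries of the genotypes were 2 reads apart. Its log2 fold change of -0.77 (SE 0.39) was not distinguishable from 0 at this depth (limma adjusted p = 0.208). With each library left out it ranged from -1.15 (without *Dnmt1* KO replicate 2) to -0.39 (without *Dnmt1* KO replicate 1), with -1.13 and -0.41 without control replicates 2 and 1, and it did not pass in any of these. Counting error alone amounts to 26.7% of the value at 14 reads, against 3.40% at the 865 reads of *Tbr1* in the deepest library.

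**Figure D2:**
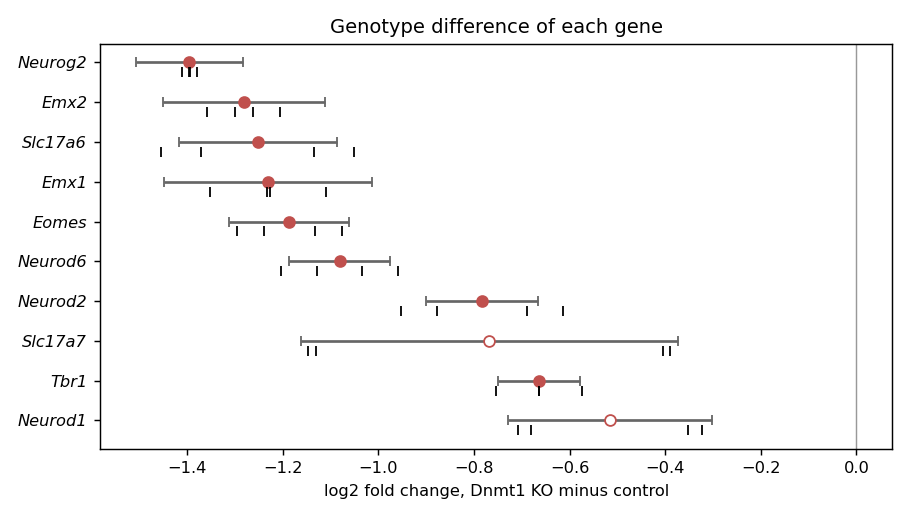
Log2 fold change (*Dnmt1* KO minus control) of each gene, ordered by size. Circles are the estimates with their limma standard errors (variance pooled with genes of similar expression, 2 libraries per genotype), filled where the gene was called. Ticks below them are the values with each of the 4 libraries left out. The estimates run from -1.40 (*Neurog2*) to -0.52 (*Neurod1*), and no value with a library left out is above 0.

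The fold changes differed among the genes by more than their errors in some pairs. Of 45 pairs, 17 differed by more than 2 standard errors, a description without adjustment, since the genes share libraries. In 16 of the 17 pairs one partner was *Tbr1*, *Neurod1* or *Neurod2*, and the other, with the lower value, was *Neurog2*, *Emx2*, *Emx1*, *Slc17a6*, *Eomes* or *Neurod6*. The remaining pair was *Neurog2* against *Neurod6* (-0.31, SE 0.15). *Neurog2* lay 0.73 below *Tbr1* on the log2 scale (difference -0.73, SE 0.14), *Eomes* 0.52 below it (-0.52, SE 0.15) and *Neurod6* 0.42 below it (-0.42, SE 0.14). No pair with *Slc17a7* exceeded 2 standard errors, with an SE of its own of 0.39.

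Other pairs of a progenitor gene and a neuronal gene were within 2 standard errors, such as *Eomes* and *Neurod6* (-0.11, SE 0.16) and *Neurog2* and *Slc17a6* (-0.14, SE 0.20), and *Slc17a6* (-1.25) lay as low as *Eomes* (-1.19) and *Emx1* (-1.23). For 2 of the pairs that differed, the values are given as ratios within a library, which need no scaling between libraries and restate those differences. *Eomes* per *Tbr1*, both as normalized count per kb, was 0.522 and 0.447 in the control and 0.327 and 0.344 in the *Dnmt1* KO libraries. *Neurog2* per *Neurod2* was 1.13 and 0.991 in the control and 0.621 and 0.769 in the *Dnmt1* KO libraries. Both ratios were lower in each *Dnmt1* KO library than in each control library. *Slc17a6* per *Slc17a7* was 3.66 and 7.26 in the control and 4.30 and 3.27 in the *Dnmt1* KO libraries, so the genotypes overlapped in the ratio of the transporters.

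Per kb of transcript, *Neurod6* was the highest of the 10 genes in the control libraries, with a mean normalized count per kb of 249, followed by *Tbr1* with 195. *Neurog2* with 164 and *Neurod2* with 155 came next, and their ranges overlapped. *Eomes* had 94.3, *Emx1* 61.0, *Emx2* 58.2 (overlapping *Emx1*), *Slc17a6* 52.7, *Neurod1* 34.1 and *Slc17a7* 10.5. In the *Dnmt1* KO libraries *Tbr1* with 123 and *Neurod6* with 118 overlapped at the top, and *Neurod2* with 90.4 stood above *Neurog2* with 62.1. *Emx1* (25.5), *Neurod1* (23.8), *Emx2* (23.8) and *Slc17a6* (22.1) formed a run in which neighbours overlapped, and *Slc17a7* was again the lowest with 6.07. The order of *Neurog2* and *Neurod2* thus went from overlapping to separated between the genotypes.

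Their summed level was below that of the markers of the sorted cell type, but single genes were not all lower. In the control libraries *Neurod6* (249 per kb) was above *Gad2* (230.3), and *Neurod6*, *Tbr1*, *Neurog2* and *Neurod2* were above *Nkx2-1* (126) and *Dlx6* (83.2). Summed per kb, the 10 genes had 1071 and 1077 in the control and 559.7 and 512 in the *Dnmt1* KO libraries, and this was 20.6% in both control and 7.55% and 6.82% in the *Dnmt1* KO libraries of the summed level of the 11 interneuron markers. In recovered reads, the 10 genes together had 3635 and 3216 in the control and 1768 and 1464 in the *Dnmt1* KO libraries. The interneuron markers moved the opposite way, with 9 of 11 called higher (8.30% of all genes tested), 0 lower, and their median log2 fold change was 0.48. *Sst* had a log2 fold change of 0.48 and *Lhx6* of 0.73, and *Dlx6* and *Nkx2-1* were not called (0.12 and -0.03, the first changing sign without *Dnmt1* KO replicate 2 and the second without control replicate 1 or with the length and GC trend removed).

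**Figure D3:**
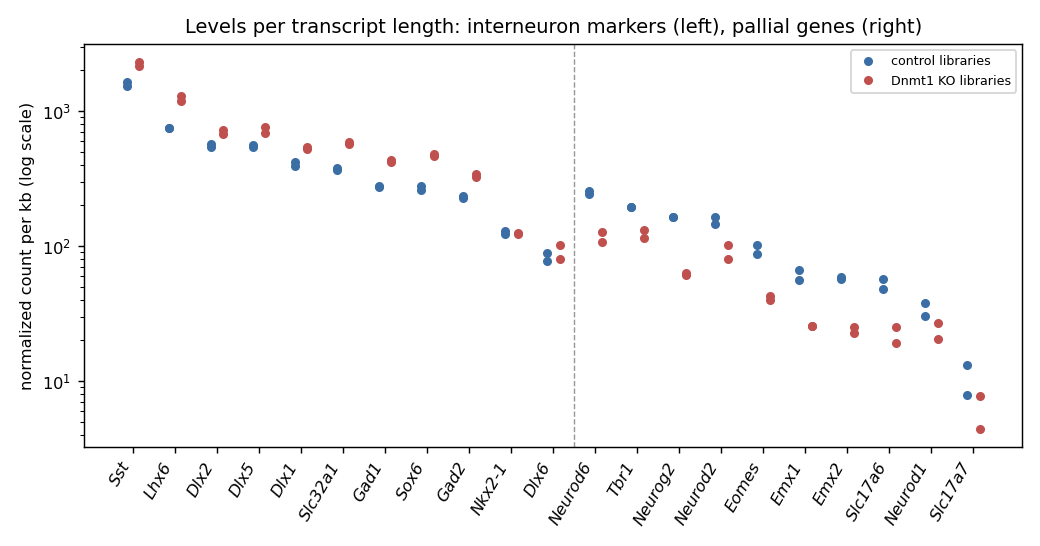
Normalized count per kb of transcript (log axis) of the 11 interneuron markers, left of the dashed line, and the 10 pallial genes, right of it. Each point is a library, control in blue and *Dnmt1* KO in red. All 10 pallial genes have red below blue, *Neurod6* being the highest of them in the control (249), and 9 of the 11 interneuron markers were called higher.

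Other genes of the pallial lineage were examined from a list of 30 that excludes the 10 genes, of which 29 were tested. Of these 20 were called lower and 3 higher, against 8.99% and 8.30% of all genes tested, and their median log2 fold change was -0.74. Leaving out control replicate 2 lowered the first count to 13, and 12 of the 20 were called with each library left out. Of the 7 pallial progenitor genes 6 fell, among them *Lhx2*, a selector gene of the cortex (log2 fold change -1.20, SE 0.094), *Tfap2c* (-1.45), *Gli3* (-0.97) and *Pax6* (-0.66, SE 0.085). *Neurog1*, the paralogue of *Neurog2*, fell by 2.17 on the log2 scale from 22.4 and 23.5 normalized counts to 7.89 and 2.19, which rest on 8 and 2 reads. Its call held only without *Dnmt1* KO replicate 1, with values from -2.91 (without that library) to -1.43 (without *Dnmt1* KO replicate 2) and a highest adjusted p of 0.101 (without control replicate 2). *Dmrta1* was not called, at -0.95.

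Of 8 genes of intermediate progenitors 5 fell, *Btg2* (-1.04), *Nhlh1* (-1.47), *Nhlh2* (-1.12), *Gadd45g* (-0.74) and *Insm1* (-0.34). *Nhlh1* was not called without control replicate 1 (limma adjusted p = 0.109) nor *Gadd45g* without control replicate 2 (0.052), and *Insm1* lost its call whichever library was left out (0.0706 to 0.154) and under DESeq2. *Mfng* (-0.45), *Sstr2* (-0.21) and *Mfap4* (-0.55) did not pass. Of 15 genes of excitatory neurons 14 were tested, 9 fell and 3 rose. The fallen genes included *Fezf2*, a factor of subcerebral projection neurons (-1.32, SE 0.18), *Nrn1* (-1.54, SE 0.20) and *Sox5* (-0.88, SE 0.084). The genes that rose were *Cux2* (0.69, SE 0.053), *Bcl11b* (0.45, SE 0.046) and *Pou3f3* (0.25, SE 0.055). They were abundant, with control means of 1921, 3333 and 1768 normalized counts. The list's summed normalized count was 110.3% of the control mean in the *Dnmt1* KO libraries although more of its genes fell than rose. Expression outside the pallial lineage was not examined for the genes of these lists, whether they fell or rose. *Slc17a8*, which encodes the other vesicular glutamate transporter, VGLUT3, was below the filter, with 4.47, 4.08, 13.8 and 2.19 in control replicates 1 and 2 and *Dnmt1* KO replicates 1 and 2.

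Some genes of Cajal-Retzius cells and of glutamatergic neurons in neighbouring regions fell too. Of 7 Cajal-Retzius cell genes 4 fell and 0 rose, and the median log2 fold change was -0.94. *Lhx1* and *Lhx5* were the lowest with -1.77 each, while *Trp73* (-0.66), *Ebf2* (-0.68) and *Ndnf* (-0.71) were not called. Of 8 genes of glutamatergic neurons in neighbouring regions 5 fell and 0 rose, with a median of -1.01. *Barhl2* (-1.93), a factor of diencephalic and spinal neurons, and *Otp* (-0.79), a factor of hypothalamic neurons, were among those that fell. The summed normalized counts were 532 and 664 against 248 and 266 for the former list. For the latter they were 1165 and 1114 against 541 and 609.7, and in neither list did the genotypes overlap. Of all genes tested, 29.0% had both *Dnmt1* KO libraries below both control libraries, and 8.99% were called lower. *Calb2* lost its call when either control library was left out.

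Markers of other cell types moved with these genes, where 8.99% of all genes tested were called lower. Of 8 radial glia genes 6 fell and *Sox2* rose (0.40), with summed normalized counts of 10056 and 10156 in the control against 5926 and 6131 in the *Dnmt1* KO libraries. All 6 genes of dividing cells fell (5455 and 5305 against 3801 and 3777). All 6 of the blood genes that were tested fell (2235 and 2152 against 468 and 492, over the list of 8), and 6 of the 7 tested of 9 vascular and microglial genes (568 and 604 against 226 and 266). *Ccna2*, *Cdk1*, *Pcna* and *Csf1r* lost their call without control replicate 1, all of these but *Ccna2* also without control replicate 2, *Cdk1* also without *Dnmt1* KO replicate 2 and *Pcna* also without *Dnmt1* KO replicate 1. No gene of these lists was at 0 in all libraries. Their part in the lower levels of the 10 pallial genes was not tested.

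**Figure D4:**
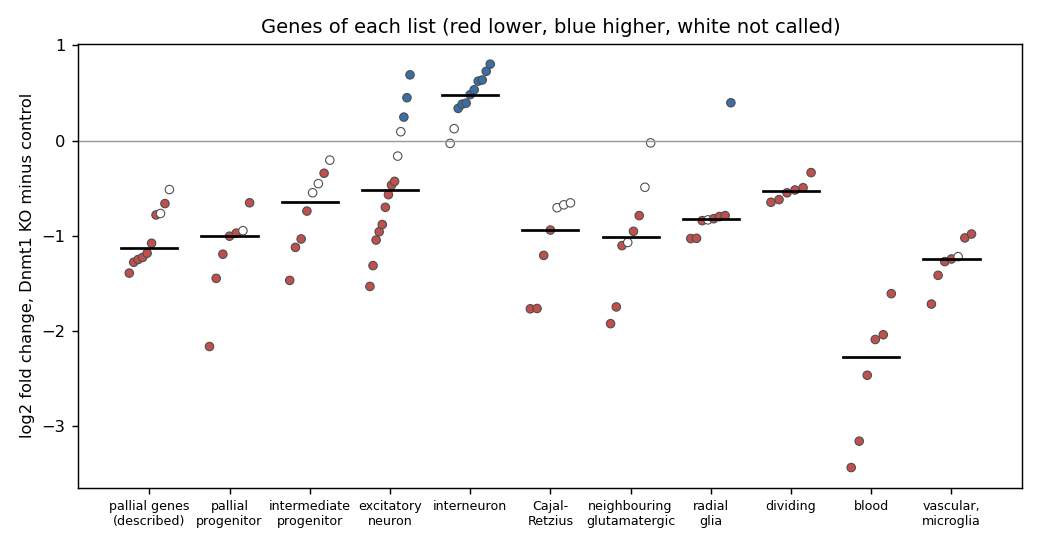
Log2 fold changes (*Dnmt1* KO minus control) of the tested genes of each list, 1 circle per gene, with the median as a bar. Red genes were called lower, blue genes higher and white genes neither, by limma at an adjusted p below 0.05. The 10 pallial genes have a median of -1.13, the interneuron markers of 0.48 and the blood genes of -2.28.

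Among the 8411 other genes whose mean normalized count reached 100, those whose profile over the 4 libraries was most like the summed profile of the 10 were *Rai14*, *Fgfr3*, *H2ac20*, *Rpl36a-ps2* and *Epb41l2*, with a root mean square difference of 0.041, 0.042, 0.044, 0.049 and 0.050 on the log2 scale. *Rai14* had 391 and 374 in the control against 203 and 196 in the *Dnmt1* KO libraries, and *Fgfr3* had 241 and 233 against 122 and 120.2. *H2ac20* and *Rpl36a-ps2* belong to families of near-identical copies, so their counts are uncertain. With 4 libraries in 2 groups, likeness here mostly measures a genotype difference of the same size.

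Reads of the 10 genes could mostly be assigned by sequence. None shared a run of 50 bases of transcript with another of the 10, and *Emx1*, *Tbr1* and *Neurog2* shared none with any annotated gene. On the same strand, 5.52% of the *Neurod1* transcript was shared with *Cerkl*, which had 0.895, 1.02, 2.96 and 1.09 normalized counts, and 0.576% of *Eomes* was a repeat found in many genes. In 7 of the genes, from 2.30% (*Neurod2*) to 22.4% (*Neurod6*) of the transcript matched the opposite strand of other annotated transcripts. The library kit keeps strand, but the strand setting of the counting is not stated, so these counts are uncertain to that extent. *Emx2os*, antisense to *Emx2*, had 8.05 and 10.2 in the control and 3.95 and 3.28 in the *Dnmt1* KO libraries, and *Gm3279*, antisense to *Neurod6*, was at 0 in all.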

How the data were processed

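Bulk RNA-seq of sorted cells was analysed in 2 control and 2 *Dnmt1* KO libraries, grouped by the labels. For the authors' files, STAR alignment (GRCm39) followed trimming by Trim Galore, and Salmon gave the gene counts. The deposited signal is this count scaled by the DESeq2 size factor of the library. Whole reads were recovered from it, since 100% of the 89965 nonzero values were whole at a tolerance of 0.0001 read.

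The filter was a mean of 10 or more. limma 3.58.1 (R 4.3.3, eBayes with variance trend, genotype only, Benjamini-Hochberg, threshold 0.05) compared log2(normalized count + 1). Fold changes on this scale understate low genes. An exact permutation test of 2 against 2 libraries cannot go below p = 0.333. Alternatives were other pseudocounts (0.5, 10) and filters (1, 50), TMM, no variance trend, edgeR 4.0.16, DESeq2 1.42.0, limma-voom, a length and GC spline (5 degrees of freedom), a replicate block and each library left out, when limma assumes that the lone library varies like the others. The tests were also run on simulated counts with the same dispersion for every gene, which cannot decide whether to use the variance trend. No outcome of that run is used here.

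Values per kb used the representative transcript of the GENCODE annotation of GRCm39, and promoters came from RefSeq (GRCm38.p6). Gene lists named were pallial progenitor, intermediate progenitor, excitatory neuron, interneuron, Cajal-Retzius, neighbouring glutamatergic, radial glia, dividing, blood, and vascular and microglial genes. All 10 genes are named. Of the other lists, called genes could be named and, of the rest, the 3 with the highest mean. A few genes under this rule are not reported here. The genes and lists were chosen with earlier results of these data known.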

Additional observations from a re-analysis of the deposited data

How the results depend on the processing

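Over the alternatives, the 10 genes gave 149 fold changes, of which 140 kept their direction and their side of the threshold, 8 no longer passed, 1 newly passed and 0 changed sign. The count of genes called lower was 8 in 13 of 15 alternatives. Under limma without the variance trend it was 0, as were the counts of other pallial lineage genes called lower (20 in the reported fit, 13 to 20 in the remaining alternatives) and higher (3 in the reported fit). The smallest adjusted p over all genes was then 0.0592, with 3339 genes at an unadjusted p below 0.05. With each library left out the 3 counts were 8 to 9, 13 to 18 and 3 to 3, and 13 came without control replicate 2. The 8 called genes passed with each library left out, with a highest adjusted p of 0.0299 for *Emx1*.

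Of 1286 values of other named genes, 1166 kept their direction and their side of the threshold, 113 no longer passed, 1 newly passed and 6 changed sign, the last among genes that were not called. With the length and GC trend removed, *Nkx2-1* was at 0.022 and *Pou4f1* at 0.0699. With each library left out, *Nkx2-1* ranged from -0.076 to 0.015 (the highest without control replicate 1), *Pou4f1* from -0.28 to 0.23 (above 0 without control replicate 1 or *Dnmt1* KO replicate 1, at 0.11) and *Dlx6* from -0.052 (without *Dnmt1* KO replicate 2) to 0.30. *Slc17a7* has no value at a mean of at least 50.

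Over all genes, 1287 were called lower and 1189 higher. DESeq2 called 683 and 634, limma without control replicate 1 787 and 861, and without control replicate 2 738 and 787. With the length and GC trend removed it called 1102 and 1485, and the median of all genes moved to 0.04. With the replicate number as a block, 1555 and 1402 genes were called and the same 8 of the 10 pallial genes. Whether the replicate numbers pair the libraries is not stated in the labels. The correlation of replicate differences between genotypes was -0.085 over 14323 genes, which cannot decide it with 2 libraries per genotype. Depth limited *Slc17a7* most, with 14 to 46 reads.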
